A study of Homo sapiens with 48 samples.

Results

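Control fibroblasts were followed from 6 h to 12 h of a combined treatment with transforming growth factor β (TGFβ) and interleukin 1β (IL-1β), and the account below is of the genes whose RNA level differed between those times. The comparison rests on 6 of the 48 libraries of the series, 3 at 12 h and 3 at 6 h, chosen by their labels and not by any measured value. The cells are IL11mNG fibroblasts, an immortalised human skin fibroblast line carrying a knock-in of the fluorescent protein mNeonGreen at IL11, derived from single-cell clones that were afterwards given Cas9. Control cells carried a non-targeting guide RNA from a lentivirus and were used as a selected bulk population, with the genotype label WT, although the cell line label shared by all samples, controls included, reads Cas9+ and KO for GLIS3. Both groups received TGFβ and IL-1β at 10 ng per ml each, added in reverse order of time so that all cells were collected together. The 0 h cells (no cytokine) were collected with the others and are the untreated group shared by both times. They and 24 h in the same cells are given as reference levels. The study describes each addition as new medium with or without cytokines, and no cells given new medium alone for 6 h or 12 h were sampled. Time since new medium may thus have differed along with time in cytokines, and its part was not tested. The other groups used here are GLIS3 CRISPRko fibroblasts, which carried Cas9 and a GLIS3 guide, and the groups VP64_Ctrl and VP64_A of the activation arm, which carried dCas9–VP64 and are called by their sample descriptions. Their titles and genotype labels disagree with the descriptions: VP64_Ctrl is labelled as GLIS3 activation and VP64_A as WT, so which of them carried the GLIS3 guide cannot be told from the labels. The level of GLIS3 in both is given with their results. Each was sampled at the same times under the same cytokines, with 3 libraries per time.

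IL-1β signals through NF-κB and mitogen-activated protein kinases and induces immediate early genes, cytokines and chemokines, many of which encode proteins or RNA-binding factors that shut the same signals down again. TGFβ signals through SMAD2 and SMAD3 and drives production of matrix proteins, which are folded and modified in the endoplasmic reticulum (ER) before secretion. Fibroblasts exposed to both are used as a model of inflamed, remodelling connective tissue.

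Levels are in counts per 1000000 (CPM) of library sizes scaled by the TMM method. The estimated counts of the 6 h libraries summed to between 4659152 and 5661982, and those of the 12 h libraries to between 2614219 and 3108805, so that the 12 h libraries were shallower. In GLIS3 CRISPRko fibroblasts the order was the opposite (2963560 to 3479573 at 6 h, 4144332 to 7105884 at 12 h). Ribosomal protein genes held between 4.78% and 6.25% of the counts in the 6 libraries, and genes of the mitochondrial chromosome carried no counts, so they give no measure of RNA quality. In CPM of unscaled library totals, the 15 fibroblast markers summed to 38550 to 46930 at 6 h and 40750 to 46720 at 12 h. On that scale the 11 leukocyte markers summed to at most 4.97 CPM, with 9 of them, PTPRC included, at 0 in all libraries of both times. Pairs of libraries correlated at 0.958 to 0.971 within 6 h, 0.957 to 0.959 within 12 h and 0.933 to 0.95 between the times (log2 CPM across genes, which are not independent).

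Of 10962 genes tested, 1000 (9.12%) were called, 469 higher at 12 h (4.28%) and 531 lower (4.84%), at an adjusted p under 0.05 in edgeR's quasi-likelihood test over the 24 libraries of the knockout arm. Among them, 217 were at least 2-fold higher and 242 at least 2-fold lower, and the median log2 fold change over all genes tested was -0.01. For 961 of the 1000 called genes the 3 libraries of one time lay wholly above the 3 of the other, a separation seen in 2714 (24.8%) of all genes tested. On log2(TPM + 1), where TPM is transcripts per 1000000, with limma 127 genes were higher and 246 lower, so that the share of calls that were higher was 34.05% in place of 46.9%. An unadjusted p under 0.05 gave 1131 higher and 1233 lower, and DESeq2 436 and 481. Leaving out 1 control library at 6 h or 12 h gave 592 to 814 calls. Counts for gene lists under these settings are to be read against those totals and not against 9.12%. The labels do not say that the 3 libraries of a time came from separate cultures, whereas the study describes its cell culture replicates in general as independent. The p-values rest on the spread between libraries within the 8 groups of the knockout arm, which may be technical. In bulk RNA, fewer cells of a kind and less RNA per cell cannot be told apart. Replicate 1 at 6 h held the lowest of the 3 values for LIF, IL6, CCL2, PTGS2, TNFAIP3, MMP1, SERPINB2 and HSPA5. Over all called genes it was not apart in this way, being the lowest of the 3 for 36% of genes called higher and 36.5% of genes called lower, and the highest for 33.5% and 33.3%. Its TMM factor was 1.34, against 0.888 and 0.875 in replicates 2 and 3, and its 50 most abundant genes held 33.8% of its counts, against 40.9% and 41.96%. In unscaled counts it did stand apart. The chi-square per degree of freedom was 29.28 and 23.17 for its pairs with replicates 2 and 3, against 8.112 between replicates 2 and 3. For pairs of the shallower 12 h libraries it was 5.955 to 6.297. The part of these differences in the results was not tested beyond the values without that library.

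**Figure D1:**
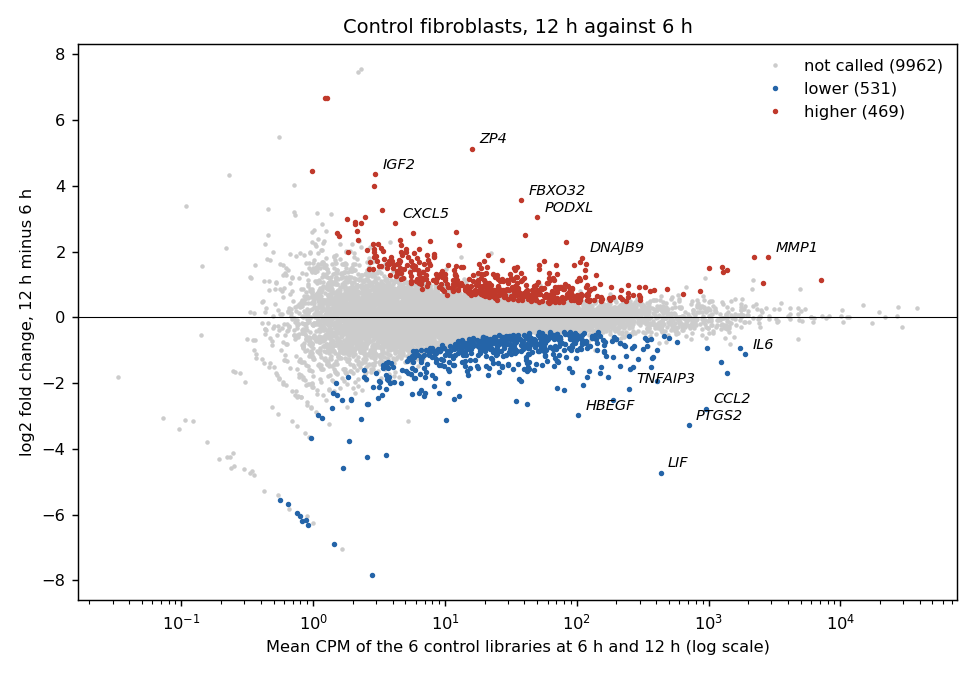
The log2 fold change from 6 h to 12 h (vertical axis) is plotted against the mean CPM of the 6 control libraries (horizontal axis, log scale) for every gene tested, with the 469 genes called higher in red and the 531 called lower in blue. LIF, PTGS2, HBEGF and CCL2 stand at the lower edge at well-counted levels and ZP4, FBXO32 and PODXL at the upper edge; the blue points under -5 are genes with no count in any 12 h library.

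Promoter sequence is shown for 8 called genes, picked after their values were seen among those with a motif of NF-κB, of serum response factor or of the ER stress response upstream of the start, since these factors act on the gene lists of NF-κB, immediate early and ER folding genes described further on. All stretches come from RefSeq (GRCh38.p14), run 5′ to 3′ on the strand of the gene and end before a start given by RefSeq, and capitals mark the motif. RefSeq starts can differ from the GENCODE v44 bounds of a gene, which are printed further on for some genes only. The stretches of IL6, CCL20 and SERP1 lie within the GENCODE bounds of their genes, and those of TNFAIP3 and HSPA5 in part. Bounds of CCL20 and SERP1 are not printed.
IL6, chr7:22727107-22727156 (plus strand), NF-κB motif: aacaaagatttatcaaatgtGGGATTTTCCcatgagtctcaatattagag
TNFAIP3, chr6:137867172-137867233 (plus strand), NF-κB motif, 2 matches on the opposite strand: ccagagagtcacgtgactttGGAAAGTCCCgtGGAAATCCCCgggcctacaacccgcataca
BIRC3, chr11:102317265-102317378 (plus strand), NF-κB motif, 2 matches on the opposite strand: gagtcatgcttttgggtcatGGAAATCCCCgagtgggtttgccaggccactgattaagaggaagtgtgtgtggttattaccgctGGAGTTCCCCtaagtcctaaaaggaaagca
CCL20, chr2:227813743-227813792 (plus strand), NF-κB motif, on the opposite strand: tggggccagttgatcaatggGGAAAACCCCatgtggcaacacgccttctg
EGR1, chr5:138465354-138465425 (plus strand), CArG box, 2 matches: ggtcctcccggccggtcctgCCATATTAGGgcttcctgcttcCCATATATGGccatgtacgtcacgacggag
HSPA5, chr9:125241371-125241429 (minus strand), ER stress element: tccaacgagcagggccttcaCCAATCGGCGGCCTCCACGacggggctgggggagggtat
FICD, chr12:108515103-108515161 (plus strand), ER stress element: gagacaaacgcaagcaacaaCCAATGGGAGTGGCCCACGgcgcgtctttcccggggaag
SERP1, chr3:150546690-150546746 (minus strand), ER stress element, on the opposite strand: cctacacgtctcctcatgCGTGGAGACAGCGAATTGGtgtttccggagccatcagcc

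The genes tested matched 8885 genes of the RefSeq promoter table, with 13106 windows from 250 bases before to 50 bases after a start, searched on both strands. The NF-κB motif was in 8.92% of the 706 windows of genes called lower, 6.75% of the 578 windows of genes called higher and 6.66% of all windows. The CArG box, the site of serum response factor, was in 2.55% of windows of genes called lower, 0.519% of those called higher and 1.17% of all. The ER stress element, bound by ATF6 together with NF-Y, was in 0% of windows of genes called lower, 0.519% (3 windows) of those called higher and 0.137% of all, and the 3 windows are those of HSPA5, FICD and SERP1. The AP-1 motif TGANTCA was in 6.80%, 5.36% and 5.11% of windows of lower, higher and all genes, and the CEBP-ATF motif TGATGNAA in 2.69%, 1.90% and 1.97%. For the TEAD motif GGAATG the shares were 10.9%, 12.5% and 11.4%, for the D-box TTATGNAA 2.55%, 1.73% and 1.80%, and for the SMAD motif GTCTAGAC 0%, 0.173% and 0.130%. The NF-κB, CArG and ER stress motifs allow several bases at some positions, matches of different motifs may overlap, and these shares are descriptions without a test.

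LIF, CLCF1 and IL6, cytokines of the IL-6 family, fell, and CSF3 rose. Of 12 cytokine genes tested, 4 were lower and 1 was higher (41.7% called, against 9.12% of all genes), and their median log2 fold change was -0.70. LIF (chr22:30240453-30246759, minus strand), which encodes leukaemia inhibitory factor, a ligand of the gp130 receptor, stood at 525, 1072 and 912 CPM in replicates 1, 2 and 3 at 6 h and at 29.8, 40.2 and 24.7 CPM at 12 h. Its lowest 6 h library was far above its highest 12 h library, and the log2 fold change was -4.72 ± 0.29 (SE) with an adjusted p of 6.61e-13 in edgeR. At 0 h LIF averaged 0.324 CPM and at 24 h 6.12 CPM, so that most of the return towards the level without cytokines fell between 6 h and 12 h. CLCF1, another gp130 ligand, stood at 73.3, 48.8 and 66.8 CPM at 6 h and 20.96, 26.5 and 25.4 CPM at 12 h. For CLCF1 the log2 fold change was -1.37 ± 0.18 (SE, adjusted p = 1.74e-06). IL6 (chr7:22725884-22732002, plus strand), the founding member of the family, stood at 1372, 3286 and 3157 CPM at 6 h and 1383, 992 and 1190.3 CPM at 12 h. IL6 was called lower (log2 fold change -1.13 ± 0.28, adjusted p = 0.00869), but its libraries overlap: replicate 1 at 6 h was about level with replicate 1 at 12 h. CSF1, the macrophage growth factor, was lower in every 12 h library (142, 106 and 120.02 CPM at 6 h, 54.8, 83.1 and 76.5 CPM at 12 h, log2 fold change -0.78 ± 0.16, adjusted p = 0.00133).

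CSF3, which encodes the granulocyte growth factor G-CSF, went the other way. It stood at 59.5, 63.5 and 70.2 CPM at 6 h and at 189, 129.8 and 93.2 CPM at 12 h, with no overlap, and the log2 fold change was 1.09 ± 0.22 (SE, adjusted p = 0.00111, edgeR). Its mean was 0.09004 CPM at 0 h and 11.5 CPM at 24 h, so the 12 h libraries held the highest of the 4 means. IL11, the gene of the reporter, did not pass the test (11.9, 17.9 and 12.03 CPM at 6 h, 25.4, 10.8 and 15.6 CPM at 12 h, log2 fold change 0.301 ± 0.34, adjusted p = 0.671). GLIS3, the gene targeted in the other group, also did not pass (6.47, 4.78 and 4.42 CPM at 6 h, 3.31, 3.598 and 2.18 CPM at 12 h, log2 fold change -0.79 ± 0.43, adjusted p = 0.294).

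Of 12 chemokines tested, 2 were lower and 2 higher (33.3% called, against 9.12% of all genes). Their median log2 fold change was -0.26 (-0.47 to -0.033 without 1 library). CCL2 (chr17:34255274-34257208, plus strand), which attracts monocytes, stood at 879, 2432 and 1727 CPM at 6 h and 248, 231 and 257 CPM at 12 h. The 6 h libraries spread widely, yet the lowest of them was above all 12 h libraries. CCL2 fell by 2.78 on the log2 scale (SE 0.29, adjusted p = 2.65e-08, edgeR). CCL20, a ligand of CCR6 on lymphocytes and dendritic cells, stood at 10.6, 13.9 and 7.85 CPM at 6 h and 3.31, 2.62 and 1.09 CPM at 12 h. For CCL20 the log2 fold change was -2.199 ± 0.43 (SE, adjusted p = 0.00108). CXCL5 and CXCL6, neutrophil attractants that bind CXCR2, rose from low levels. CXCL5 stood at 1.15, 0.796 and 0.982 CPM at 6 h and 10.3, 5.23 and 6.53 CPM at 12 h. For CXCL5 the log2 fold change was 2.86 ± 0.54 (SE, adjusted p = 0.000536). CXCL6 stood at 2.73, 1.19 and 1.72 CPM and 11.4, 6.21 and 6.89 CPM at the same times (log2 fold change 2.06 ± 0.51, adjusted p = 0.00903). For other neutrophil attractants the libraries of both times overlapped and the test was not passed: CXCL1 had a log2 fold change of -0.31 ± 0.26 (SE), CXCL2 of -0.24 ± 0.26 (SE) and CXCL8, listed as IL8, of -0.29 ± 0.47 (SE).

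Genes of the NF-κB system were lower at 12 h wherever they were called. Of 23 subunits, inhibitors and feedback genes tested, 10 were lower and 0 higher in edgeR (43.5% called, against 9.12% of all genes). Their median log2 fold change was -0.52. At an unadjusted p under 0.05, 12 were lower and 2 higher (1233 and 1131 over all 10962 genes), and in DESeq2 10 and 0. Without replicate 3 at 12 h 6 were lower (345 over all genes), and with limma on log2(TPM + 1) 5 (246 over all genes). TNFAIP3 (chr6:137867214-137883314, plus strand), which encodes the ubiquitin-editing inhibitor A20, stood at 265, 501 and 457 CPM at 6 h and 101, 90.3 and 81.2 CPM at 12 h. All 12 h libraries were below all 6 h libraries (log2 fold change -2.17 ± 0.19, adjusted p = 7.40e-10), while the 24 h mean of 76.6 CPM was still above the 0 h mean of 8.09 CPM. TNFAIP2 stood at 131, 122 and 140.1 CPM at 6 h and 24.6, 37.3 and 22.5 CPM at 12 h. For TNFAIP2 the log2 fold change was -2.21 ± 0.22 (SE, adjusted p = 2.00e-08). NFKB1, the precursor of the p50 subunit, stood at 100.2, 90.9 and 105 CPM and 39.7, 37.6 and 27.9 CPM. For NFKB1 the log2 fold change was -1.49 ± 0.20 (SE, adjusted p = 5.04e-06). Smaller falls were called for the ubiquitin ligases BIRC2 (log2 fold change -0.79 ± 0.16, adjusted p = 0.00105) and BIRC3 (log2 fold change -0.68 ± 0.17, adjusted p = 0.00714) and for the adhesion molecule ICAM1 (log2 fold change -0.88 ± 0.20, adjusted p = 0.00423). REL, whose libraries overlapped, RELB, TRAF1 and IRAK2 were the other members called, with log2 fold changes of -1.37 ± 0.40 (SE), -0.83 ± 0.25 (SE), -0.62 ± 0.17 (SE) and -0.88 ± 0.23 (SE). NFKBIA, which encodes the inhibitor IκBα, did not pass: its libraries overlapped (299.6, 437 and 523 CPM at 6 h, 348, 362 and 375 CPM at 12 h, log2 fold change -0.21 ± 0.17, adjusted p = 0.517).

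Transcription factors of the immediate early class moved in the same direction, 10 of 17 tested being lower and 0 higher (58.8% called, against 9.12% of all genes). Their median was -1.15, and the log2 fold change was below 0 for all 17. At an unadjusted p under 0.05 15 were lower (1233 of all 10962 genes), and in DESeq2 11 (481 of 10271), with 0 higher in each. Without replicate 1 at 12 h or replicate 2 at 6 h, 5 and 6 were lower (301 and 381 over all genes), again with 0 higher. KLF6, a zinc finger factor, stood at 304, 421 and 452 CPM at 6 h and 141, 141 and 129 CPM at 12 h. For KLF6 the log2 fold change was -1.52 ± 0.16 (SE, adjusted p = 7.51e-08). IER2 stood at 107, 103 and 139 CPM and 44.1, 54.6 and 51.1 CPM. For IER2 the log2 fold change was -1.22 ± 0.16 (SE, adjusted p = 2.23e-06). The groups did not overlap for either gene. FOSL1, an AP-1 subunit, was lower (148, 262 and 376 CPM at 6 h, 98.2, 116 and 123 CPM at 12 h, log2 fold change -1.22 ± 0.25, adjusted p = 0.00125). Also lower were its partner JUN (log2 fold change -0.94 ± 0.25, adjusted p = 0.0131), the TGFβ-inducible factor KLF10 (log2 fold change -1.15 ± 0.20, adjusted p = 0.000177) and the clock repressor BHLHE40 (log2 fold change -0.73 ± 0.18, adjusted p = 0.00624). EGR1, whose promoter carries the CArG boxes above, was called lower near the limit of counting (2.44, 7.56 and 3.44 CPM at 6 h, 0.368, 1.64 and 0 CPM at 12 h, adjusted p = 0.0281). Its 12 h mean was below the floor of 1.06 CPM that 3 counts per library set, so no fold is given. Of 15 negative regulators of the mitogen-activated kinases tested, 6 were lower and 0 higher in edgeR (40% called, against 9.12% of all genes). Of these regulators, 6 and 0 passed at an unadjusted p under 0.05 (1233 and 1131 over all 10962 genes), and 5 and 0 in DESeq2. Their median was -0.36, and -0.46 to -0.203 without 1 library, the weakest without replicate 1 at 6 h. DUSP6, the phosphatase of ERK, stood at 62.2, 74.03 and 80.99 CPM at 6 h and 17.3, 10.1 and 7.25 CPM at 12 h, with no overlap. For DUSP6 the log2 fold change was -2.65 ± 0.24 (SE, adjusted p = 2.57e-09). DUSP1 stood at 567, 635 and 746 CPM and 171, 119 and 215 CPM (log2 fold change -1.95 ± 0.25, adjusted p = 1.74e-06). The 24 h mean of DUSP1, 359 CPM, was above both the 12 h libraries and the 0 h mean of 316 CPM. The receptor tyrosine kinase inhibitors ERRFI1, SPRY4 and SPRY2 had log2 fold changes of -1.498 ± 0.22 (SE), -1.56 ± 0.24 (SE) and -1.38 ± 0.33 (SE, adjusted p = 1.94e-05, 2.69e-05 and 0.00528, edgeR). DUSP5, counted at under 5 CPM and below the same floor at 12 h, was called lower (adjusted p = 0.0131).

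**Figure D2:**
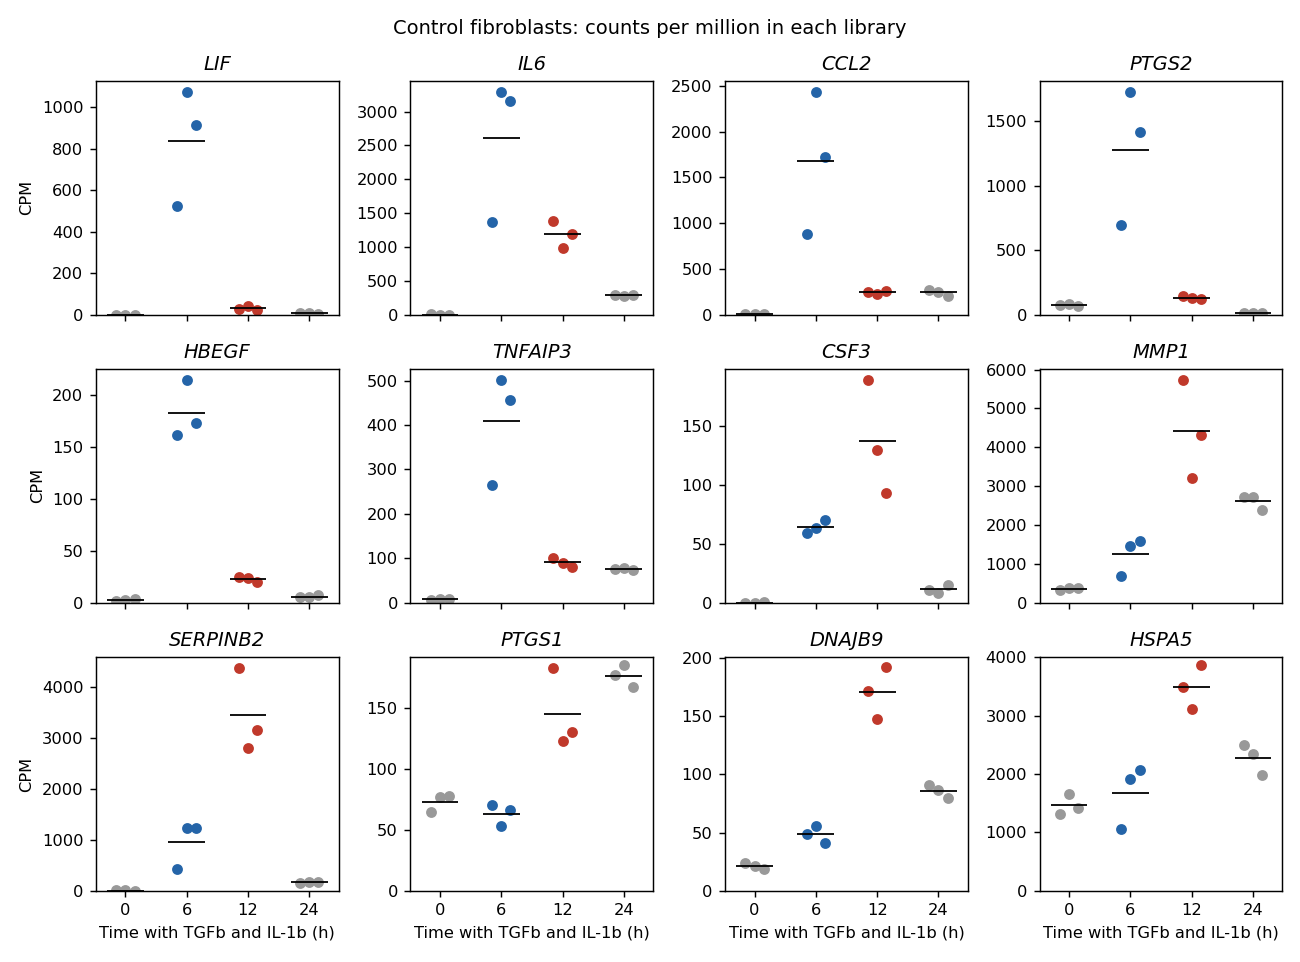
CPM of 12 genes in each of the 12 control libraries (linear axes from 0), by hours with TGFβ and IL-1β, with 6 h in blue, 12 h in red, 0 h and 24 h in grey and the mean as a bar. LIF, CCL2, PTGS2, HBEGF and TNFAIP3 have all 12 h points below all 6 h points, IL6 overlaps, and the remaining 6 genes have all 12 h points above all 6 h points.

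Of 24 growth factor ligands tested, 8 were lower and 3 higher (45.8% called, against 9.12% of all genes, median -0.45). HBEGF (chr5:140332843-140346603, minus strand), a membrane-anchored ligand of the EGF receptor, stood at 161, 214 and 173 CPM at 6 h and 25.01, 23.9 and 20.3 CPM at 12 h, a log2 change of -2.98 ± 0.20 (SE, adjusted p = 2.30e-12, edgeR). ANGPTL4, an inhibitor of lipoprotein lipase, stood at 306, 290.2 and 353 CPM and 129, 115 and 92.8 CPM. For ANGPTL4 the log2 fold change was -1.49 ± 0.18 (SE, adjusted p = 3.69e-07). Neither gene's groups overlapped, and both had 24 h means, 5.804 and 6.16 CPM, closer to those at 0 h (2.75 and 1.58 CPM) than to those at 6 h. Endothelin 1 (EDN1, log2 fold change -1.63 ± 0.25, adjusted p = 2.94e-05) and FGF5 (log2 fold change -1.28 ± 0.19, adjusted p = 2.27e-05) were also lower. Of those that rose, 1 was STC1, a secreted glycoprotein (29.9, 38.6 and 43.7 CPM at 6 h, 106, 74.2 and 76.2 CPM at 12 h, log2 fold change 1.199 ± 0.19, adjusted p = 5.36e-05). The others were WNT5B (log2 fold change 0.74 ± 0.20, adjusted p = 0.0155) and IGF2, which stood at 0, 0.796 and 0 CPM at 6 h and 6.99, 5.56 and 4.35 CPM at 12 h. The mean of IGF2 at 6 h was below the floor of 0.588 CPM that 3 counts per library set, so no fold is given.

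The cyclooxygenase genes moved in opposite directions. PTGS2 (chr1:186671791-186680922, minus strand), the inducible enzyme of prostaglandin synthesis, stood at 695, 1727 and 1418 CPM at 6 h and 143, 129 and 122 CPM at 12 h. It was among the 15 largest falls (log2 fold change -3.28 ± 0.25, adjusted p = 1.98e-11), and its 24 h mean of 13.97 CPM was below the 0 h mean of 74.9 CPM. PTGS1 (chr9:122370530-122395703, plus strand), the isoform usually described as constitutive, stood at 70.6, 52.9 and 66.02 CPM at 6 h and 183, 123 and 131 CPM at 12 h, with no overlap. For PTGS1 the log2 fold change was 1.200 ± 0.17 (SE, adjusted p = 8.83e-06). Its mean at 24 h was 177 CPM, against 73.1 CPM at 0 h. Of 12 prostaglandin genes tested, 2 were higher and 3 lower (41.7% called, against 9.12% of all genes). Their median was -0.60 (-0.15 with only the 6 libraries compared, -0.79 to -0.38 without 1 library). The prostaglandin F receptor PTGFR (log2 fold change -1.37 ± 0.38, adjusted p = 0.0199) and the exporter ABCC4 (log2 fold change -0.99 ± 0.32, adjusted p = 0.0463) were lower. The importer SLCO2A1 was higher (log2 fold change 1.72 ± 0.51, adjusted p = 0.0283).

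Several proteases that cut the matrix rose. Of 23 proteases and inhibitors tested, 8 were higher and 1 was lower (39.1% called, against 9.12% of all genes). Their median log2 fold change was 0.33 (0.32 to 0.52 without 1 library). MMP1 (chr11:102789401-102798160, minus strand), the interstitial collagenase, stood at 697, 1456 and 1585 CPM at 6 h and 5743, 3205 and 4320.1 CPM at 12 h. Every 12 h library was above every 6 h library (log2 fold change 1.83 ± 0.32, adjusted p = 0.000205). Its neighbours in the same cluster on chromosome 11, the stromelysins MMP3 (335, 863 and 941 CPM at 6 h, 2365, 1243 and 1924 CPM at 12 h, log2 fold change 1.37 ± 0.30, adjusted p = 0.00268) and MMP10 (3.59, 2.59 and 4.42 CPM at 6 h, 18.8, 8.83 and 10.9 CPM at 12 h, log2 fold change 1.86 ± 0.40, adjusted p = 0.00224), were higher as well. The membrane-anchored protease MMP14 was also called (log2 fold change 0.61 ± 0.19, adjusted p = 0.0371).

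Of the inhibitors described here, SERPINB2 and TIMP3 rose. SERPINB2 (chr18:63871692-63903888, plus strand), plasminogen activator inhibitor 2, stood at 437, 1236 and 1224 CPM at 6 h and 4365, 2804 and 3162 CPM at 12 h (log2 fold change 1.84 ± 0.30, adjusted p = 7.61e-05). Means were 5.21 CPM at 0 h and 169 CPM at 24 h. TIMP3, a matrix-bound inhibitor of metalloproteinases, stood at 529, 786 and 634 CPM at 6 h and 1574, 2244 and 1846 CPM at 12 h. For TIMP3 the log2 fold change was 1.54 ± 0.25 (SE, adjusted p = 5.51e-05). For both genes the groups did not overlap. PLAU, the urokinase that SERPINB2 inhibits, was higher (43.8, 42.4 and 56.5 CPM at 6 h, 128, 80.8 and 61.3 CPM at 12 h, log2 fold change 0.93 ± 0.22, adjusted p = 0.00609). The urokinase receptor PLAUR was the 1 member called lower (log2 fold change -0.58 ± 0.18, adjusted p = 0.039).

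Of 21 collagens tested 4 were higher and 2 lower (28.6% called against 9.12% of all genes, median 0.06), and without replicate 1 at 6 h 2 and 2. The direction of the median turned without 1 library, to -0.12 without replicate 1 at 6 h and -0.00936 without replicate 2 at 12 h, and it reached 0.14 without replicate 1 at 12 h. Of 22 other matrix genes 1 was higher (4.55% called), and of 27 contractile and actin genes 1 was lower (3.7%). COL7A1, the anchoring fibril collagen, stood at 53.2, 45.97 and 64.3 CPM at 6 h and 117, 107 and 105 CPM at 12 h. For COL7A1 the log2 fold change was 1.01 ± 0.18 (SE, adjusted p = 0.00033). COL6A1 (log2 fold change 0.68 ± 0.17, adjusted p = 0.00719) and COL6A2 (log2 fold change 0.89 ± 0.21, adjusted p = 0.00525), adjacent genes for chains of collagen VI, were also higher, and COL10A1 rose from near 0 (0, 1.19 and 0 CPM at 6 h, 3.68, 1.31 and 4.71 CPM at 12 h). COL8A1 (log2 fold change -0.84 ± 0.17, adjusted p = 0.00111) and COL11A1 (log2 fold change -1.03 ± 0.27, adjusted p = 0.0115) were lower. The fibrillar collagen COL3A1 did not pass (log2 fold change -0.51 ± 0.31, adjusted p = 0.36), nor did the smooth muscle actin ACTA2 (log2 fold change -0.33 ± 0.35, adjusted p = 0.634), a marker of myofibroblasts. THBS1, which encodes thrombospondin 1, an activator of latent TGFβ, was higher (3057, 4637 and 5756 CPM at 6 h, 7253, 9482 and 12839.7 CPM at 12 h, log2 fold change 1.14 ± 0.36, adjusted p = 0.0418). CRYAB, a small heat shock protein, was lower (log2 fold change -1.53 ± 0.43, adjusted p = 0.0191).

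Of 23 enzymes and chaperones that modify collagen, 4 were higher and 0 lower in edgeR (17.4% called, against 9.12% of all genes). Of these enzymes and chaperones, 8 were higher and 1 lower at an unadjusted p under 0.05 (1131 and 1233 over all 10962 genes), and 3 and 0 in DESeq2. Their median was 0.17, and 0.13 to 0.31 without 1 library, the highest without replicate 1 at 12 h. LEPREL1, the prolyl 3-hydroxylase also named P3H2, stood at 51.3, 77.4 and 57.7 CPM at 6 h and 169, 194 and 143 CPM at 12 h. For LEPREL1 the log2 fold change was 1.44 ± 0.26 (SE, adjusted p = 0.000296). LEPRE1 (log2 fold change 0.53 ± 0.15, adjusted p = 0.0166) and the prolyl 4-hydroxylase subunit P4HA2 (log2 fold change 0.71 ± 0.21, adjusted p = 0.0281) rose by less, and ADAMTS14, which trims procollagen, had no count at 6 h. Among 26 genes of SMAD feedback and early TGFβ response, 3 were higher and 4 lower (26.9% called, against 9.12% of all genes, median 0.16). Without 1 library the median ran from -0.011, without replicate 2 at 12 h, to 0.19. The higher ones were the ID genes, targets of BMP signals that encode inhibitors of basic helix-loop-helix factors: ID1 stood at 24.4, 16.3 and 22.6 CPM at 6 h and 40.8, 62.1 and 58.03 CPM at 12 h (log2 fold change 1.34 ± 0.21, adjusted p = 4.58e-05). Means of ID1 were 320.2 CPM at 0 h and 211 CPM at 24 h. ID2 (log2 fold change 0.77 ± 0.24, adjusted p = 0.0394) and ID3 (log2 fold change 0.76 ± 0.23, adjusted p = 0.0363) moved with it. SMAD3 (log2 fold change -1.14 ± 0.28, adjusted p = 0.00719), the corepressor TGIF1 (log2 fold change -0.804 ± 0.18, adjusted p = 0.00246) and SNAI2 (log2 fold change -0.67 ± 0.17, adjusted p = 0.00869) were lower, as was BAMBI, a decoy receptor with no count at 12 h, and SMAD7, the inhibitory SMAD, did not pass (log2 fold change -0.695 ± 0.36, adjusted p = 0.269).

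Genes of protein folding in the ER were higher at 12 h wherever they were called, with 14 of 39 tested higher and 0 lower in edgeR. Their median was 0.30, and 35.9% were called, against 9.12% of all genes. At an unadjusted p under 0.05, 16 were higher and 0 lower (1131 and 1233 over all 10962 genes), and in DESeq2 14 and 0. Without replicate 1 at 6 h, and with limma on log2(TPM + 1), 9 were higher and 0 lower (345 and 127 higher over all genes). DNAJB9 (chr7:108569867-108574850, plus strand), an ER co-chaperone, stood at 48.9, 55.3 and 41.5 CPM at 6 h and 172, 148 and 192 CPM at 12 h. For DNAJB9 the log2 fold change was 1.81 ± 0.18 (SE, adjusted p = 1.09e-08). SDF2L1 stood at 29.2, 18.5 and 32.4 CPM and 106, 75.2 and 78.7 CPM. For SDF2L1 the log2 fold change was 1.700 ± 0.19 (SE, adjusted p = 1.60e-07). For both, each 12 h library was more than 2-fold above each 6 h library. EDEM1, which passes misfolded glycoproteins to degradation, stood at 12.4, 14.1 and 13.3 CPM at 6 h and 33.1, 34.3 and 30.5 CPM at 12 h. For EDEM1 the log2 fold change was 1.303 ± 0.20 (SE, adjusted p = 2.96e-05). The chaperone HYOU1 (log2 fold change 1.43 ± 0.24, adjusted p = 0.000104) and the coat protein SEC23B (log2 fold change 0.85 ± 0.15, adjusted p = 0.000272) followed. So did the folding enzyme PDIA4 (log2 fold change 0.69 ± 0.18, adjusted p = 0.0131) and MANF (log2 fold change 0.86 ± 0.21, adjusted p = 0.0059). HSPA5 (chr9:125234853-125241382, minus strand), the chaperone BiP, stood at 1054, 1922 and 2071 CPM at 6 h and 3495, 3119 and 3861 CPM at 12 h. For HSPA5 the log2 fold change was 1.05 ± 0.30 (SE, adjusted p = 0.0244). HSPA5 was also called higher in VP64_A (log2 fold change 1.05, adjusted p = 0.0135, edgeR). It was not called in GLIS3 CRISPRko (log2 fold change 0.32, adjusted p = 0.594, edgeR) or VP64_Ctrl (log2 fold change 0.34, adjusted p = 0.555, edgeR). FICD, the enzyme that AMPylates BiP, and SERP1, a membrane protein of the translocon, carry the same promoter element and were outside the list. FICD had a log2 fold change of 1.71 ± 0.24 (SE) and SERP1 of 0.98 ± 0.16 (SE, adjusted p = 5.66e-06 and 6.52e-05, edgeR). XBP1, the transcription factor activated by splicing in this response, did not pass at the level of the gene (log2 fold change 0.07 ± 0.19, adjusted p = 0.892), and 7 of the 39 genes had a log2 fold change below 0. DNAJB9 and HSPA5 had 24 h means of 85.6 and 2275 CPM, below all of their 12 h libraries.

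Of 32 genes tested in a list of ATF4, its targets and serine synthesis, 4 were higher and 3 lower (21.9% called, against 9.12% of all genes). The median was -0.04, which turned to 0.0395 without replicate 1 at 12 h. Every omission of 1 library at 6 h or 12 h left at most 2 higher. ATF4 itself was lower (log2 fold change -0.69 ± 0.18, adjusted p = 0.0137). DDIT3, the factor CHOP, was higher (log2 fold change 0.99 ± 0.27, adjusted p = 0.0151). The serine synthesis enzyme PSAT1 (log2 fold change -1.02 ± 0.20, adjusted p = 0.000624) and the cystine transporter SLC7A11 (log2 fold change -0.74 ± 0.22, adjusted p = 0.0334) were lower. The mitochondrial enzymes ALDH18A1 (log2 fold change 0.52 ± 0.15, adjusted p = 0.0217) and SHMT2 (log2 fold change 0.59 ± 0.17, adjusted p = 0.0283) were higher.

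**Figure D3:**
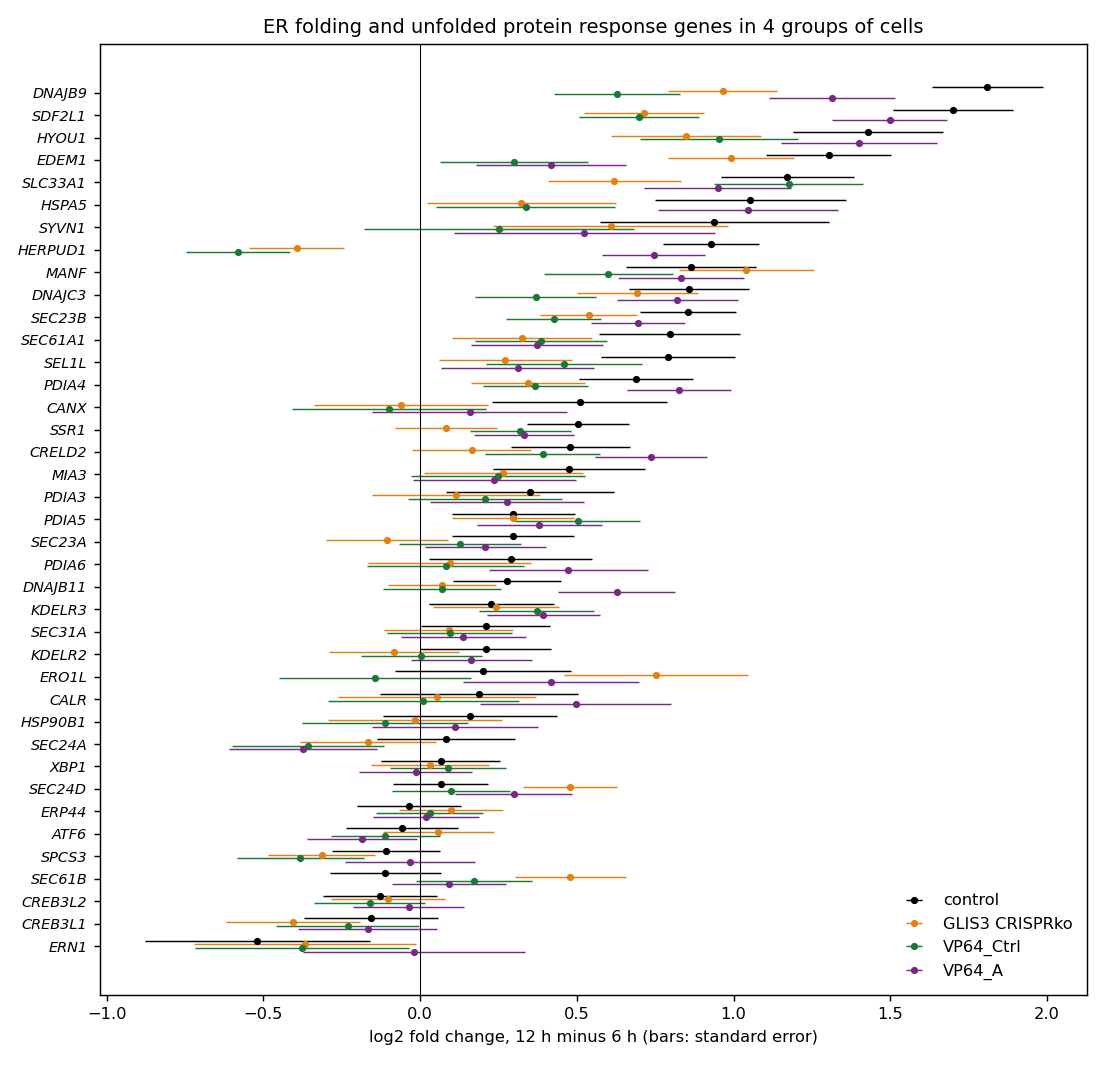
The log2 fold change from 6 h to 12 h with its standard error (horizontal axis) for the 39 ER folding genes (vertical axis) in control, GLIS3 CRISPRko, VP64_Ctrl and VP64_A fibroblasts, 3 libraries per time in each. Points above 0 number 32, 29, 29 and 32 in the same order. Of all genes tested, 5344 of 10962 lay above 0 in control, and 52.1%, 49% and 49.2% in the other groups. Genes of the list called higher and lower numbered 14 and 0 in control and 8 and 0 in GLIS3 CRISPRko. They numbered 4 and 1 in VP64_Ctrl and 12 and 0 in VP64_A. HERPUD1 lies above 0 in control and VP64_A and below 0 in GLIS3 CRISPRko and VP64_Ctrl. Control and GLIS3 CRISPRko come from the fit of 24 libraries, and the VP64 groups from the fit of 48.

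Of 36 interferon-stimulated genes tested, 8 were higher and 3 lower (30.6% called, against 9.12% of all genes), and the median was 0.46. STAT2, a subunit of the interferon-activated factor ISGF3, stood at 14.4, 10.9 and 9.08 CPM at 6 h and 23.5, 38.3 and 26.5 CPM at 12 h. For STAT2 the log2 fold change was 1.34 ± 0.26 (SE, adjusted p = 0.000538). USP18 (log2 fold change 1.33 ± 0.29, adjusted p = 0.00213), HERC6 (log2 fold change 1.52 ± 0.36, adjusted p = 0.00478) and IRF9, the DNA-binding subunit of ISGF3 (log2 fold change 0.86 ± 0.24, adjusted p = 0.0211), were higher without overlap. IFI44 (log2 fold change 1.17 ± 0.29, adjusted p = 0.00673) and MX2 (log2 fold change 1.799 ± 0.49, adjusted p = 0.0171) were called with overlapping libraries. Replicate 3 at 12 h held the lowest 12 h value of STAT2's list mates USP18, HERC6, IFI44, MX2 and IRF9. Without that library the median of the list was 0.90, with 9 called higher and 1 lower, and without replicate 2 at 12 h it was 0.18, with 2 higher and 2 lower. Without replicate 1 at 12 h 3 were higher and 0 lower, without replicate 2 at 6 h 4 and 3, and limma on log2(TPM + 1) called 0 higher and 1 lower. MX1 (log2 fold change 0.88 ± 0.49, adjusted p = 0.302) and ISG15 (log2 fold change 0.56 ± 0.33, adjusted p = 0.327) did not pass. The guanylate-binding protein GBP1 (log2 fold change -0.78 ± 0.21, adjusted p = 0.0129), TRIM21 (log2 fold change -0.92 ± 0.25, adjusted p = 0.0157) and IFIT2 (log2 fold change -1.45 ± 0.41, adjusted p = 0.0205) were lower. In GLIS3 CRISPRko 8 members were higher and 4 lower (median 0.51), in VP64_Ctrl 24 and 2 (1.32) and in VP64_A 21 and 2 (1.26). The shares called over all genes there were 8.78%, 9.38% and 7.96%. MX1 and ISG15 were called higher in VP64_Ctrl and VP64_A and not in GLIS3 CRISPRko.

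Of 46 genes of G1 and S phase, 5 were higher and 0 lower in edgeR (10.9% called, median 0.13). Of 48 genes of G2 and M phase, 0 were higher and 7 lower (14.6% called, median -0.23). The share called over all genes was 9.12%, and the difference between the phases was not tested. At an unadjusted p under 0.05, 8 were higher and 1 lower for G1 and S, and 1 was higher and 16 lower for G2 and M. Over all 10962 genes 1131 were higher and 1233 lower at that threshold. In DESeq2 the counts were 4 and 0 for G1 and S, and 0 and 7 for G2 and M. CDC6, which loads the replicative helicase, stood at 17.1, 19.9 and 26.02 CPM at 6 h and 37.9, 57.9 and 50.8 CPM at 12 h. For CDC6 the log2 fold change was 1.24 ± 0.18 (SE, adjusted p = 1.96e-05). UHRF1, which maintains DNA methylation, stood at 63.2, 67.1 and 65.5 CPM and 106, 123 and 127 CPM. For UHRF1 the log2 fold change was 0.86 ± 0.14 (SE, adjusted p = 4.44e-05). The libraries of both genes were separate. PRIM1, MCM10 and CCNE2, of DNA replication and its onset, had log2 fold changes of 1.13 ± 0.33 (SE), 0.85 ± 0.26 (SE) and 0.78 ± 0.25 (SE, adjusted p = 0.0274, 0.0336 and 0.0426, edgeR). CKS2, a subunit of cyclin-dependent kinases, fell from 77.8, 106 and 91.1 CPM at 6 h to 48.9, 52.002 and 38.8 CPM at 12 h. For CKS2 the log2 fold change was -0.97 ± 0.16 (SE, adjusted p = 6.67e-05). CCNB2 (log2 fold change -0.52 ± 0.14, adjusted p = 0.0131), CDCA8 (log2 fold change -0.52 ± 0.15, adjusted p = 0.0194), KIF23 (log2 fold change -0.55 ± 0.16, adjusted p = 0.0235) and CENPE (log2 fold change -0.65 ± 0.19, adjusted p = 0.0257), which act in mitosis, and ANLN (log2 fold change -0.84 ± 0.25, adjusted p = 0.0315), of the contractile ring, fell by less. Without 1 library the median ran from 0.079 to 0.15 for G1 and S and from -0.25 to -0.13 for G2 and M, nearest to 0 without replicate 1 at 12 h and replicate 3 at 6 h, respectively. These counts rested on single libraries: without 1 control library at 6 h or 12 h, G1 and S genes called higher fell to as few as 2 (replicates 2 or 3 at 6 h, replicate 1 at 12 h) and G2 and M genes called lower to as few as 1 (replicate 1 at 12 h).

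In the remaining lists the share called, against 9.12% of all genes, was 14.6% for ribosome biogenesis and nucleotide synthesis, 11.4% for cholesterol and fatty acid synthesis and 6.25% for glycolysis and the hypoxia response. It was 13.3% for clock genes, 16% for metallothionein and NRF2 genes and 37.9% for genes of inflammation-associated fibroblasts. Of 48 genes of ribosome biogenesis and nucleotide synthesis 5 were higher, with GNL3 (log2 fold change 0.71 ± 0.15, adjusted p = 0.0011) and ODC1 (log2 fold change 0.64 ± 0.15, adjusted p = 0.00511) among them. The 2 lower genes were IMPDH2 (log2 fold change -0.598 ± 0.14, adjusted p = 0.00606) and CTPS1 (log2 fold change -0.65 ± 0.20, adjusted p = 0.0347), and the median was 0.16. Of 35 genes of cholesterol and fatty acid synthesis INSIG2 was higher (log2 fold change 1.33 ± 0.29, adjusted p = 0.00197). In that list 3 genes were lower, INSIG1 among them (log2 fold change -1.24 ± 0.30, adjusted p = 0.00623), and the median was -0.01 (-0.0474 to 0.0372 without 1 library). Of 32 genes of glycolysis and the hypoxia response HK2 was higher (log2 fold change 0.67 ± 0.21, adjusted p = 0.0412) and EGLN1 lower (log2 fold change -0.98 ± 0.32, adjusted p = 0.0488). Of 15 clock genes ARNTL was higher (log2 fold change 1.24 ± 0.35, adjusted p = 0.0195) and BHLHE40 lower. Among 25 metallothionein and NRF2 genes MT1X was higher (log2 fold change 1.08 ± 0.25, adjusted p = 0.00355) and 3 were lower. They included NFE2L2, which encodes NRF2 itself (115, 168 and 135 CPM at 6 h, 50.8, 55.6 and 69.6 CPM at 12 h, log2 fold change -1.25 ± 0.16, adjusted p = 2.07e-06), and OSGIN1 (log2 fold change -2.01 ± 0.38, adjusted p = 0.000511). Of the 29 genes that the study lists for inflammation-associated fibroblasts, 9 were higher and 2 lower (median 0.06), the 2 being LIF and PTGS2. That median turned to -0.0511 without replicate 1 at 6 h and was 0.21 without replicate 2 at 6 h. The study chose that list, so its direction is not independent evidence.

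**Figure D4:**
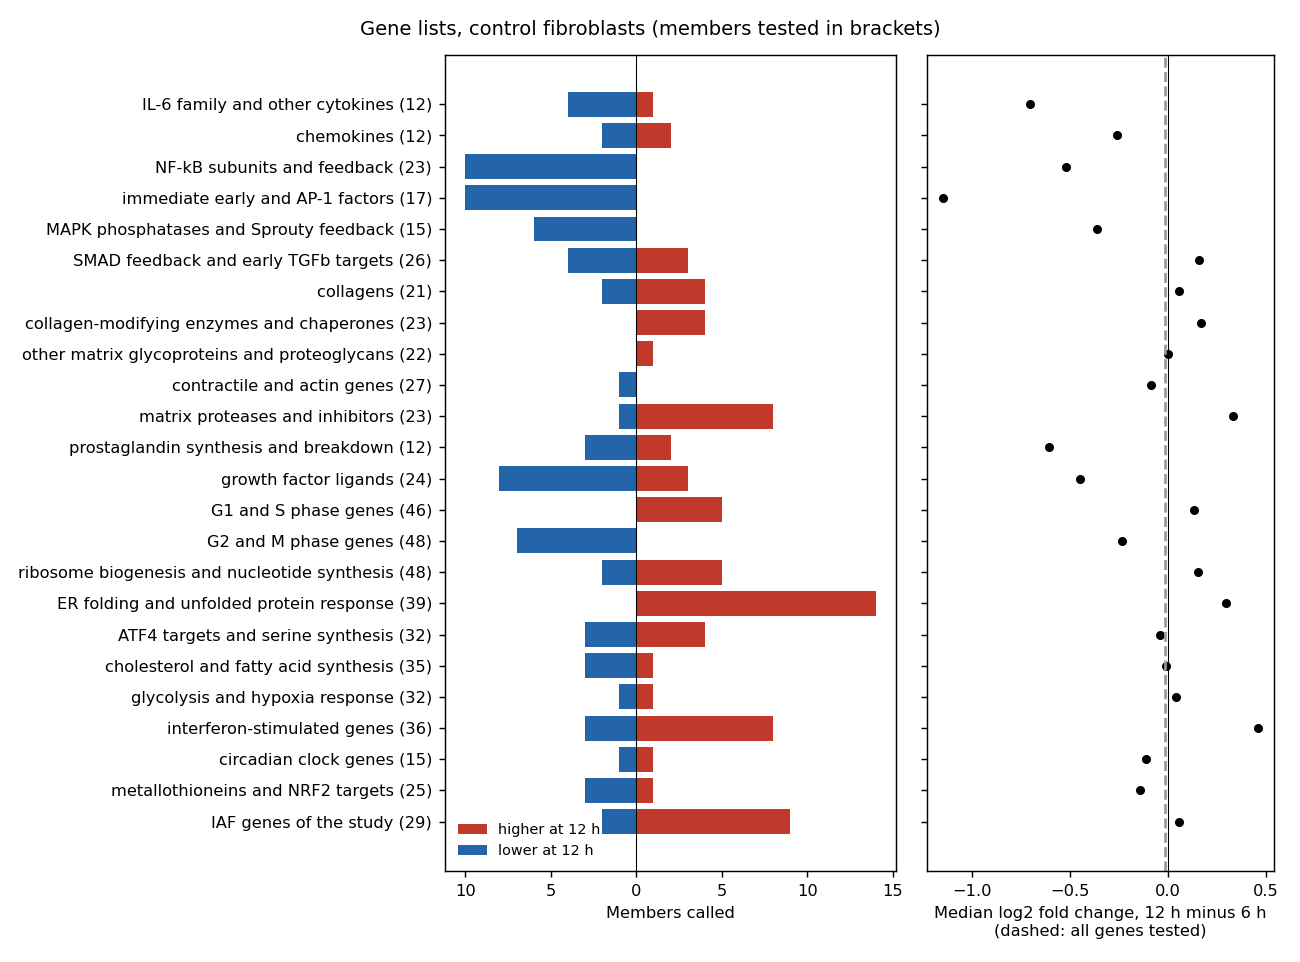
Left, the number of members called lower (blue, to the left) and higher (red, to the right) at 12 h in each of 24 gene lists, with the number tested in brackets. Right, the median log2 fold change of each list, with the median of all genes tested dashed; the immediate early factors lie furthest below it and the interferon-stimulated genes furthest above.

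The 15 largest rises with separate libraries were led by genes with few counts at 6 h. ZP4 (chr1:237877864-237890922, minus strand), known as an egg coat glycoprotein, stood at 1.29, 0.597 and 0.491 CPM at 6 h and 39.4, 27.1 and 26.8 CPM at 12 h (log2 fold change 5.13 ± 0.31, adjusted p = 6.84e-13). The 24 h mean of ZP4, 30.8 CPM, was close to that at 12 h. FBXO32, the ubiquitin ligase atrogin-1, stood at 5.17, 8.36 and 4.17 CPM at 6 h and 70.98, 74.2 and 65.3 CPM at 12 h. For FBXO32 the log2 fold change was 3.56 ± 0.26 (SE, adjusted p = 1.24e-11). PODXL (chr7:131500262-131558217, minus strand), the sialomucin podocalyxin, stood at 9.06, 12.1 and 11.8 CPM at 6 h and 94.9, 97.5 and 76.2 CPM at 12 h. For PODXL the log2 fold change was 3.04 ± 0.21 (SE, adjusted p = 4.14e-12). All libraries of these 3 genes were separate, and PODXL returned to a mean of 21.2 CPM at 24 h. ABCA13 and ADAMTS14 had no count at 6 h and were at least 4.29-fold and 4.18-fold higher at 12 h, taking 3 counts per library as the floor. CNNM1 held 1 count at 6 h and 16 at 12 h, a ratio of 30.1 with a 95% exact binomial interval of 4.68 to 1262 for counting error alone. SERPINA9, GALNT15, CPXM2, BCL2L11, SYS1-DBNDD2 and ASB13, each at under 2 CPM in every 6 h library, made up the rest with IGF2, COL10A1 and CXCL5.

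Of the 15 largest falls with separate libraries, 7 had no count in any 12 h library. RGPD6 and CBWD6 were at least 5.32-fold and 2.74-fold lower at 12 h, but near-identical copies of these genes share reads and their counts are uncertain. LIN7A, BAMBI, SH3RF2 and AKAP6 were at least 1.66-fold, 1.51-fold, 1.22-fold and 1.06-fold lower. The gene of tumour necrosis factor, TNF, held 80 counts at 6 h and 2 at 12 h, a ratio of 21.3 (95% interval 5.70 to 179). LYPD6B, RAB7B and SYT1 held 1, 2 and 1 counts at 12 h, with ratios of 6 h to 12 h of 30.3 (5.22 to 1217), 14.9 (3.93 to 126) and 14.9 (2.46 to 609). GPRC5A, an orphan receptor induced by retinoic acid, was also lower (18.5, 21.3 and 15.2 CPM at 6 h, 2.94, 2.29 and 1.09 CPM at 12 h, log2 fold change -3.11 ± 0.37, adjusted p = 4.79e-07). Its lowest 12 h library lay near the floor of 1.06 CPM that 3 counts per library set. SSX2IP was at 0 in 2 of the 3 libraries at 12 h (adjusted p = 0.00813, edgeR). LIF and PTGS2 completed the list.

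The same step was measured in other fibroblasts, whose 6 h and 12 h libraries are not those of control. GLIS3 itself stood at 1.37, 1.49 and 1.61 CPM at 6 h and 1.45, 0.933 and 1.57 CPM at 12 h in GLIS3 CRISPRko, below all control libraries at both times. In the groups called by their descriptions VP64_Ctrl and VP64_A it averaged 4.65 ± 1.51 and 34.5 ± 3.38 CPM at 6 h and 3.36 ± 0.224 and 22.7 ± 7.57 CPM at 12 h (SD, n = 3, scaled over 48 libraries). GLIS3 thus averaged higher in VP64_A, the libraries labelled WT, than in VP64_Ctrl, those labelled GLIS3 activation, which goes against these labels. The groups stay named by their descriptions. In GLIS3 CRISPRko fibroblasts 962 of 10962 genes (8.78%) were called between 6 h and 12 h, in VP64_Ctrl 1071 of 11422 (9.38%) and in VP64_A 909 (7.96%). Of the 469 genes higher in control, 442 (94.2%) had the same sign in GLIS3 CRISPRko (52.1% of all genes were above 0 there) and 208 (44.3%) were called higher there, against 3.87% of all genes called higher. Of the 531 genes lower in control, 495 (93.2%) had the same sign (47.8% of all genes) and 275 (51.8%) were called lower, against 4.91% of all genes. In VP64_Ctrl 449 of the higher and 515 of the lower genes kept their sign, and 220 and 316 were called the same way, against 3.98% and 5.39% of all genes in the fit of 48 libraries. In VP64_A 447 and 492 kept their sign, and 185 and 253 were called the same way, against 3.53% and 4.43%. A call in the opposite direction occurred for 1 of the higher genes in each of the 3 groups and for 0 of the lower genes. LIF fell by 4.66, 5.85 and 4.73 on the log2 scale in GLIS3 CRISPRko, VP64_Ctrl and VP64_A, and ZP4 rose by 4.35, 4.57 and 4.69.

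**Figure D5:**
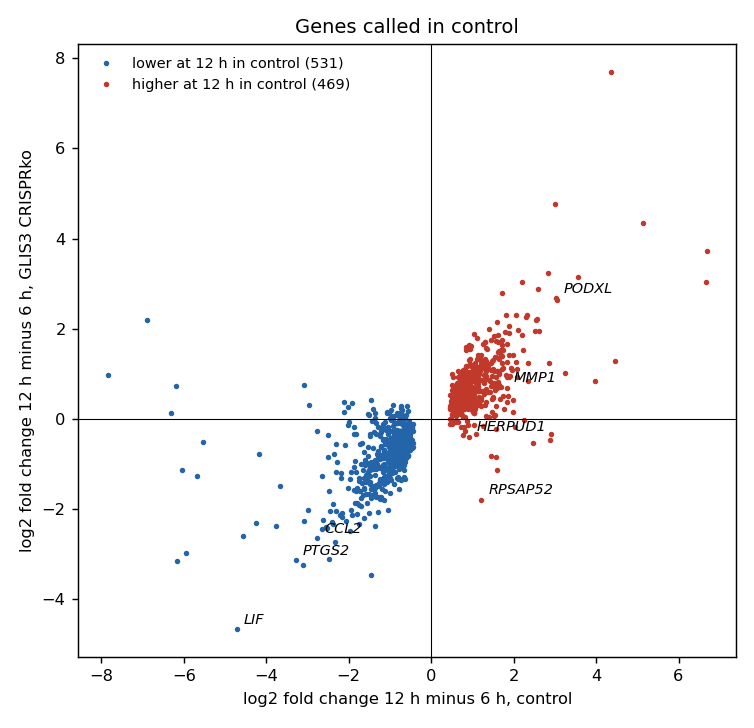
The log2 fold change from 6 h to 12 h in GLIS3 CRISPRko (vertical axis) against that in control (horizontal axis) for the 469 genes called higher (red) and the 531 called lower (blue) in control. The groups share no library; 442 red points lie above 0 and 495 blue points below 0 on the vertical axis, and HERPUD1 and RPSAP52 lie in the lower right of the plane.

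The change differed from that in control for 5 genes in GLIS3 CRISPRko (0.0456% of 10962), 8 in VP64_Ctrl (0.07% of 11422) and 16 in VP64_A (0.14%), by the interaction term of the edgeR fit at an adjusted p under 0.05. Leaving out 1 library gave 0 to 10, 5 to 11 and 4 to 18 genes in the same order. HERPUD1 (chr16:56932142-56944864, plus strand), an ER membrane protein that takes part in degradation of misfolded proteins, differed in both GLIS3 CRISPRko and VP64_Ctrl. In control it stood at 216, 222 and 244 CPM at 6 h and 431, 379.7 and 486 CPM at 12 h, without overlap. For HERPUD1 the log2 fold change was 0.93 ± 0.15 (SE, adjusted p = 7.98e-05). In GLIS3 CRISPRko its log2 fold change was -0.39 (adjusted p = 0.105), a difference from control of -1.32 ± 0.21 (SE, adjusted p = 0.00775, edgeR). In VP64_Ctrl, in the fit of 48 libraries where control stood at 0.90, it fell by 0.58 on the log2 scale (adjusted p = 0.0151), a difference of -1.48 ± 0.23 (adjusted p = 0.000838). PODXL rose less in both VP64 groups than in control, by differences of -1.43 ± 0.27 in VP64_Ctrl and -1.27 ± 0.28 in VP64_A (adjusted p = 0.00539 and 0.0302, edgeR). For CXCL2 the log2 fold change was -0.24 in control and -2.12 in GLIS3 CRISPRko, a difference of -1.89 ± 0.36 (adjusted p = 0.0314). In VP64_Ctrl and VP64_A, CXCL2 was called lower too, with log2 fold changes of -1.71 and -1.25 (adjusted p = 0.000323 and 0.0133, edgeR). Neither change differed from that in control by the interaction term (adjusted p = 0.464 and 0.747, edgeR).

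Set against the whole course from 0 h to 24 h in control cells, which uses none of the libraries at 6 h or 12 h, called genes were counted by direction. At 24 h 716 genes (6.53%) were higher than at 0 h and 409 (3.73%) lower. Of the 469 genes that rose from 6 h to 12 h, 387 (82.5%) were above their 0 h level at 24 h, against 51.1% of all genes, 163 (34.8%) were called higher and 8 lower. Of the 531 genes that fell, 294 (55.4%) were below their 0 h level at 24 h, against 48.9% of all genes, 92 (17.3%) were called lower and 67 called higher. The log2 fold change from 0 h to 24 h was 4.01 for LIF (adjusted p = 1.63e-05, edgeR), -2.41 for PTGS2 (adjusted p = 2.38e-08) and 3.26 for TNFAIP3 (adjusted p = 3.55e-13). For MMP1 the log2 difference between 24 h and 0 h was 2.87 (adjusted p = 9.63e-08), for PTGS1 1.27 (adjusted p = 9.22e-07) and for HSPA5 0.64 (adjusted p = 0.218).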

How the data were processed

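RNA was extracted with TRIzol, mRNA was selected from 40 ng of total RNA, and Nextera XT libraries were sequenced on an Illumina NextSeq instrument. The authors used Trim Galore for trimming, SortMeRNA to remove ribosomal reads, STAR for alignment (genome GRCh38) and Salmon for quantification, and FastQC, bcl2fastq and DESeq2 are also named in the submitters' processing notes. Strand setting and versions are not given in the sources used here, so reads of a gene and an antisense partner cannot be told apart. The deposited estimated counts per gene (29744 genes, 48 libraries, 6.38% of values not whole) were rounded. The deposited TPM values, made by the authors with Salmon, served an alternative. Gene positions are of GENCODE v44 (GRCh38).

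Genes were kept by filterByExpr (minimum count 10, minimum total 15), scaled by TMM and tested with edgeR 4.0.16 (glmQLFit and glmQLFTest, R 4.3.3) over the 24 libraries of the knockout arm in 8 groups, with Benjamini-Hochberg adjustment over all genes tested and a threshold of 0.05. Adjusted p-values in the text are from this test unless another is named. Values after ± are standard errors unless marked SD. They were derived as the absolute log2 fold change divided by the square root of the F statistic, so they are approximate. VP64 groups were fitted over all 48 libraries, an alternative added after the data were seen. Other alternatives used DESeq2 1.42.0, limma 3.58.1, other filters, other sets of libraries and each library left out. None of the 48 replicate pairs held identical libraries (chi-square per degree of freedom at least 3.59). Counting intervals and floors cover counting error only. The edgeR comparison of 12 h with 6 h in control was tried on simulated data, and the other steps were not.

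The comparison and the gene lists were chosen with earlier results of these data known. The genes named are the 15 largest rises and the 15 largest falls among called genes with separate libraries, up to 6 called members of each list, GLIS3 and IL11. HSPA5, EGR1, FICD, SERP1 and further genes outside that rule, those in the other observations included, were named after their values were seen. Some genes that the rule names are not reported here.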

Additional observations from a re-analysis of the deposited data

Results flagged for a closer look

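The change from 6 h to 12 h differed from that in control for the genes below, by the interaction term of the edgeR quasi-likelihood fit at an adjusted p under 0.05. Differences are of log2 fold changes, the other group minus control, with their standard errors and 3 libraries per group and time, and their causes were not tested.

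In GLIS3 CRISPRko (fit of 24 libraries, 768 genes at an unadjusted p under 0.05) the change differed for CXCL2 (-1.89 ± 0.36, from -0.24 in control and -2.12 in GLIS3 CRISPRko), EDARADD (-1.96 ± 0.37, from -0.26 in control and -2.22 in GLIS3 CRISPRko) and HERPUD1 (-1.32 ± 0.21, from 0.93 in control and -0.39 in GLIS3 CRISPRko). A difference was also called for RPSAP52 (-3.01 ± 0.54, from 1.22 in control and -1.79 in GLIS3 CRISPRko) and RPSAP9 (-1.999 ± 0.40, from 0.69 in control and -1.31 in GLIS3 CRISPRko). The adjusted p-values ranged from 0.00775 to 0.0387 in GLIS3 CRISPRko (edgeR). RPSAP52 and RPSAP9 are copies related to a ribosomal protein gene, so their reads are uncertain.

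In VP64_Ctrl (fit of 48 libraries, 678 genes at an unadjusted p under 0.05) the change differed for HERPUD1 (-1.48 ± 0.23, from 0.899 in control and -0.58 in VP64_Ctrl), HMOX1 (-1.96 ± 0.36, from 0.53 in control and -1.43 in VP64_Ctrl) and IL1A (-1.68 ± 0.34, from -0.66 in control and -2.34 in VP64_Ctrl). A difference was also called for PODXL (-1.43 ± 0.27, from 3.01 in control and 1.58 in VP64_Ctrl), SCG5 (2.001 ± 0.35, from 1.09 in control and 3.095 in VP64_Ctrl) and SLC20A1 (-1.56 ± 0.27, from 0.48 in control and -1.08 in VP64_Ctrl). The test was passed too by TRAF1 (-1.44 ± 0.27, from -0.66 in control and -2.097 in VP64_Ctrl) and TRIM16 (-0.96 ± 0.20, from -0.78 in control and -1.75 in VP64_Ctrl). The adjusted p-values ranged from 0.000838 to 0.0175 in VP64_Ctrl (edgeR).

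In VP64_A (fit of 48 libraries, 751 genes at an unadjusted p under 0.05) the change differed for AASDHPPT (-1.27 ± 0.29, from 0.69 in control and -0.57 in VP64_A), ANGPTL4 (1.61 ± 0.25, from -1.52 in control and 0.09 in VP64_A) and CAPRIN2 (2.45 ± 0.49, from -2.04 in control and 0.41 in VP64_A). A difference was also called for CSF1 (-1.05 ± 0.22, from -0.804 in control and -1.85 in VP64_A), ENO2 (1.94 ± 0.38, from -0.59 in control and 1.35 in VP64_A) and IL7R (1.04 ± 0.22, from -0.61 in control and 0.42 in VP64_A). The test was passed too by IRF1 (-1.37 ± 0.31, from 0.37 in control and -1.003 in VP64_A), NRP2 (-1.36 ± 0.26, from 1.11 in control and -0.26 in VP64_A) and NRXN3 (-1.93 ± 0.40, from -0.51 in control and -2.44 in VP64_A). Further differences were those of PCK2 (1.51 ± 0.34, from -0.53 in control and 0.98 in VP64_A), PLAU (-1.51 ± 0.29, from 0.896 in control and -0.61 in VP64_A) and PODXL (-1.27 ± 0.28, from 3.01 in control and 1.74 in VP64_A). The same test called SGK1 (1.02 ± 0.22, from -1.58 in control and -0.55 in VP64_A), STC2 (1.01 ± 0.21, from 0.17 in control and 1.19 in VP64_A) and TRAF1 (-1.299 ± 0.27, from -0.66 in control and -1.95 in VP64_A). The last was ZC3H12A (-1.31 ± 0.24, from -0.37 in control and -1.69 in VP64_A). The adjusted p-values ranged from 0.000743 to 0.0457 in VP64_A (edgeR).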

How the results depend on the processing

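Of the 1000 genes called, 886 were called the same way by DESeq2 (917 in all), 992 with DESeq2 size factors and 917 with all 48 libraries in the fit. A fold change of at least 2 left 459 genes (217 higher, 242 lower), and an unadjusted p under 0.05 gave 2364 (1131 higher, 1233 lower). With limma, log2(TPM + 1) gave 373 (127 higher, 246 lower) and log2(TPM + 0.1) gave 378 (127 higher, 251 lower), with 329 and 330 of the 1000 among them. Leaving out 1 control library at 6 h or 12 h gave 592 to 814 calls, 291 to 393 higher and 301 to 459 lower, the fewest without replicate 1 at 12 h (592) and replicate 2 at 12 h (647), and 345 lower without replicate 3 at 12 h. Genes whose change differed from control numbered 25 in VP64_Ctrl and 27 in VP64_A with DESeq2, and 72 in GLIS3 CRISPRko, 52 in VP64_Ctrl and 48 in VP64_A with no filter on low counts. Without 1 library those numbers ran from 0 to 10, 5 to 11 and 4 to 18 in GLIS3 CRISPRko, VP64_Ctrl and VP64_A. The GLIS3 CRISPRko number was 0 without replicate 2 at 6 h or replicates 1 or 2 at 12 h of that group, and 1 without control replicates 1 or 2 at 6 h or replicate 2 at 12 h. The prostaglandin list had a median of -0.15 with only the 6 libraries compared. Without 1 library the median ran from -1.27 to -0.85 for immediate early factors and from 0.18 to 0.90 for interferon-stimulated genes. Genes that did not pass changed sign: XBP1 (-0.00465 and -0.00313 with limma at pseudocounts of 1 and 0.1, -0.0673 to 0.18 without 1 library), CXCL2 (-0.52 to 0.0191) and IL11 (-0.0749 to 0.56). Of 176 named genes 164 were called, of which 70 lost their call with limma on log2(TPM + 1) and 53 without replicate 1 at 12 h. With DESeq2 146 of the 164 stayed called, 5 lost their call and 13 had no adjusted p. The causes were not tested.

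Replicate numbers did not pair the samples: deviations of same-numbered libraries at 6 h and 12 h correlated at 0.0453, -0.0158 and 0.0485. With the replicate block 997 genes were called (465 higher, 532 lower), 966 of them among the 1000. Each sample of number 1 and 3 correlated best with its own number and number 2 did not.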

Other observations

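The genes below were picked after their values were seen, and their values are a description. MYOCD, a coactivator of serum response factor in smooth muscle, stood at 29.5, 27.7 and 26.998 CPM at 6 h and 124, 111 and 181 CPM at 12 h (log2 fold change 2.296 ± 0.21, adjusted p = 2.57e-09, edgeR). LRRC15, a surface protein of activated fibroblasts, stood at 12.6, 14.5 and 8.84 CPM at 6 h and 75.03, 68.03 and 64.6 CPM at 12 h (log2 fold change 2.51 ± 0.24, adjusted p = 7.99e-09). In both genes every 12 h library was above every 6 h library.

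BDKRB1, the inducible bradykinin receptor, had a log2 fold change of -2.53 ± 0.18 (SE), and the EGF receptor gene EGFR of -0.99 ± 0.16 (SE). IFNGR1 and IFNGR2, the chains of the interferon γ receptor, had -1.002 ± 0.17 (SE) and -1.17 ± 0.17 (SE), and CD274, which encodes PD-L1, the ligand of PD-1, -1.56 ± 0.25 (SE). The death receptor TNFRSF10B (log2 fold change -1.703 ± 0.18, adjusted p = 7.72e-08), the cell death factors BAK1 (log2 fold change -1.19 ± 0.16, adjusted p = 6.52e-06) and PMAIP1 (log2 fold change -1.41 ± 0.19, adjusted p = 5.74e-06) and the survival factor MCL1 (log2 fold change -0.93 ± 0.16, adjusted p = 0.000152) were lower, whereas BCL2L11, which encodes the cell death factor BIM, was among the largest rises. SEC11C of the signal peptidase, SRPRB of the signal recognition particle receptor and COPG1 of the COPI coat were higher, by 0.85 ± 0.15 (SE), 0.79 ± 0.16 (SE) and 0.79 ± 0.17 (SE) on the log2 scale.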
